A study of Mus musculus with 60 samples.

Results

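A set of 10 genes of the pyruvate dehydrogenase system is described here, the kinases Pdk1, Pdk2, Pdk3 and Pdk4, the phosphatases Pdp1 and Pdp2, and the subunit genes Pdha1, Pdhb, Dlat and Pdhx, in aging mice on calorie restriction (CR) or resveratrol. They were chosen by name and role, and make up 10 of the 18193 genes, and 18 of the 34945 probe sets, that carry 1 gene symbol on the array. RNA of the heart, the gastrocnemius muscle (called muscle below) and the neocortex was hybridised to 60 Affymetrix whole-genome mouse expression arrays, 5 biological replicates in each tissue and group. All mice were male B6C3F1 hybrids, the cross of C57BL/6 with C3H/He, and were housed singly. The old CR mice (30 months) had eaten a diet that the sample labels call 40% restricted, and the old resveratrol mice (30 months) the control diet with resveratrol at 4.9 mg per kg body weight per day, both from the age of 14 months. The old control mice (30 months) stayed on the AIN93M control diet that all mice had eaten before. The weekly energy amounts in the study's methods make the restriction, set against these controls, smaller than the labels' figure. Young control mice (5 months) ate the control diet. Values are array signals scaled to the same trimmed mean on every array. Differences are log2 differences from limma with the SE of the fit, p-values are two-sided and Benjamini-Hochberg adjusted over all genes tested in a tissue, and a gene is said to have risen or fallen where the adjusted p was under 0.05. Each array gives the RNA of a whole piece of tissue, in which fewer cells of a type and less RNA per cell cannot be told apart.

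The pyruvate dehydrogenase complex of mitochondria turns pyruvate, the end product of glycolysis, into acetyl-CoA, and so sets how much carbohydrate carbon is burnt in the citric acid cycle. Its decarboxylase is built from an alpha chain (Pdha1) and a beta chain (Pdhb), its core is the acetyltransferase Dlat, and Pdhx, the binding protein, holds the dehydrogenase Dld to that core. The kinases phosphorylate the alpha chain and switch the complex off, and the phosphatases remove the phosphate and switch it on. Pdk4 is known as the kinase gene that heart and skeletal muscle induce in fasting, when fatty acids replace glucose as fuel, and Pdk2 as a kinase of most tissues.

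The upstream sequences of Pdk4 and Pdk2 are shown because these kinase genes moved in opposite directions under CR. Each run is the 250 bases before the RefSeq start site (build GRCm38.p6), written 5′ to 3′ on the gene's strand, which is the minus strand for both, at chr6:5496279-5496528 for Pdk4 and chr11:95041372-95041621 for Pdk2. Capitals mark matches to 6 short motifs searched on both strands, the CCAAT box (CCAAT), the Sp1 site (GGGCGG), the E-box (CACGTG), a nuclear receptor element (AGGTCA), a FOXO site (TGTTTAC) and the TATA box (TATAAA).
Pdk4: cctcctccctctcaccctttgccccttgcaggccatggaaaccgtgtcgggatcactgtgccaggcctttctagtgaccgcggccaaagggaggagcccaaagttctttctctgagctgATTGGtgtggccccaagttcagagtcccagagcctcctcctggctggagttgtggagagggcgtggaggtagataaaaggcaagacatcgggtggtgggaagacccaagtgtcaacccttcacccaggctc
Pdk2: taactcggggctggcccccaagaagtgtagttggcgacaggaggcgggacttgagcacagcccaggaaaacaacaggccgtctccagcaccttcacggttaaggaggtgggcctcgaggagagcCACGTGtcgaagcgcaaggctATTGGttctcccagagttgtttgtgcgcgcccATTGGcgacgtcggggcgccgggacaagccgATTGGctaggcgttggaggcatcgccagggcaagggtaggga
In Pdk4 the only match was 1 reverse CCAAT (written ATTGG), whose first base lies at -131 from the start site. Pdk2 held 3 reverse CCAAT, at -105, -73 and -42, and 1 CACGTG at -126, and no matches overlapped. Among 32817 RefSeq upstream sequences of this length, CCAAT was found in 33.8%, GGGCGG in 32.7%, CACGTG in 6.02%, AGGTCA in 14.0%, TGTTTAC in 3.16% and TATAAA in 12.4%. Upstream sequences were matched for 9 of the 10 genes. CCAAT was also found in Pdk3, Pdp2 and Pdhb, GGGCGG in Pdk1, Pdk3, Pdp2, Pdhb, Dlat and Pdhx, and CACGTG in Pdp2. A match describes the letters of the window and not a site.

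Several features of the arrays bear on the values below. The labelled tissues carried their own markers: the summed signal of 5 heart muscle genes was 298552 to 495685 in heart arrays, against at most 64771 elsewhere, that of 7 fast skeletal muscle genes 259462 to 548607 in muscle, and that of 6 neuronal genes 66965 to 85121 in neocortex, against at most 5427 elsewhere. In muscle, the mean log2 signal of the poly-A transcripts spiked into the RNA was 9.16 to 10.61 on old CR and 9.84 to 10.29 on old resveratrol arrays, against 6.40 to 7.19 on old control and 6.74 to 8.10 on young control arrays, so that diet and this difference cannot be told apart in muscle. In neocortex this spike signal was 9.46 to 10.04 on old resveratrol arrays, above the 8.49 to 9.25 of old control arrays (exact permutation test, p = 0.00794 and adjusted p = 0.022), and in heart it was 9.003 to 9.81 on old CR arrays, against 9.80 to 10.89 on old control arrays (exact permutation test, p = 0.0159 and adjusted p = 0.0357). In heart, the excess of the 3′ over the 5′ beta-actin signal on the log2 scale, a measure that grows as RNA is degraded, was 1.26 to 1.66 on old control arrays, with 0.66 to 0.89 on old CR, 0.68 to 0.95 on old resveratrol and 0.61 to 0.87 on young control arrays (two-sided exact permutation test of each against old controls, p = 0.00794 and adjusted p = 0.022, no lower p being possible with 5 arrays a group). The same measure on Gapdh was -0.28 to -0.25 on old CR and -0.27 to -0.17 on old resveratrol hearts, against -0.08 to 0.25 on old control hearts, and -0.30 to -0.23 on old CR and -0.30 to -0.23 on old resveratrol muscles, against -0.22 to 3.23 on old control muscles (exact permutation test, p = 0.00794 and adjusted p = 0.022 for each). The part of these measures in the heart and muscle results was not tested. In neocortex the beta-actin difference was 0.66 to 0.77 on old CR and 0.76 to 1.01 on old resveratrol arrays, against 0.45 to 0.60 on old control arrays (exact permutation test, p = 0.00794 and adjusted p = 0.022 for each), and neither its part nor that of the spike signal in the neocortex results was tested. The heart array of young control replicate 1 and the muscle array of old CR replicate 2 correlated least with their groups (mean r = 0.88 and 0.90). Both diets are compared with the same old controls, and the age comparison uses them too.

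In young controls, 8 of the 10 genes had a higher level in heart than in neocortex and 2 a lower one, against 68.4% of all genes that differed between these tissues. Of the 10 genes, 7 were higher in muscle than in neocortex and 1 was lower (background 70.3%), and 2 were higher and 6 lower in muscle than in heart (background 51.1%). The fuel-switch kinase gene Pdk4 had a mean signal of 13151 ± 3509 in muscle, 7336 ± 2693 in heart and 323 ± 53.5 in neocortex (SD, n = 5 each), a log2 difference of 5.31 between muscle and neocortex. Pdk2 had signals in muscle and heart that did not differ beyond their spread, 5943 ± 2281 and 4971 ± 1213 (adjusted p = 0.67), with 846 ± 119.5 in neocortex. Pdk3, a kinase gene known from brain, kidney and testis, ran the other way, with 551 ± 57.3 in neocortex, 211 ± 116 in heart and 23.4 ± 16.4 in muscle, where it lay under the filter on dim genes. The 4 subunit genes shared 1 order, heart above muscle above neocortex: Pdha1 had 29885 ± 4275, 20888 ± 1740.3 and 6111 ± 378, Pdhb 34904 ± 4679, 18134 ± 1487 and 7326 ± 506, Dlat 10253 ± 1485, 6503 ± 633 and 1922 ± 68.7, and Pdhx 4032 ± 476, 3199 ± 249 and 819 ± 106 in heart, muscle and neocortex. Under quantile normalization of all arrays the Pdha1 difference between muscle and heart was no longer past the threshold (-0.13 on the log2 scale, adjusted p = 0.133), nor was the higher Pdp2 level in heart than in neocortex (0.76, adjusted p = 0.0679). The calcium-sensitive phosphatase gene Pdp1 stood at 3699 ± 663 in muscle and 3724 ± 494 in neocortex, against 698 ± 198 in heart, on the probe set that stands for it. The mean log2 ratio of its second set to this one was 0.59 in heart, 0.12 in muscle and -0.92 in neocortex. On the second set muscle thus stood above neocortex, and heart, still the lowest, lay nearer to neocortex. Pdp2, a phosphatase gene known from rat liver and fat, was dim in the 3 tissues of young controls, with means of 86.6 to 172.

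Under CR, Pdk4 rose in all 3 tissues, while Pdk2 fell in heart and neocortex. Pdk1 fell in heart and muscle on the probe set that stands for it but not on its second set, and its direction in heart depended on the probe set. On the probe sets that stand for them, the subunit genes rose in neocortex and fell in muscle where they were called. Counted over the set, CR raised 2 and lowered 2 of 10 genes in heart, where 22% of all genes were called, raised 1 and lowered 3 of 9 in muscle (background 31.2%), and raised 4 and lowered 1 of 10 in neocortex (background 30.6%). Resveratrol raised 1 and lowered 2 of 10 in heart (background 17.5%), raised 1 and lowered 4 of 9 in muscle (background 18.7%), and raised 3 and lowered 1 of 10 in neocortex (background 26.2%). With age, 2 of 10 rose in heart (background 10.8%), none of 9 was called in muscle by limma (2 at an unadjusted p under 0.05, 1 by the methods' t-test at an unadjusted p of 0.01 or less, background 0.429%) and 1 of 10 fell in neocortex (background 1.46%). Set directly against resveratrol, CR gave 1 higher gene in heart (background 4%), none in muscle by limma (5 at an unadjusted p under 0.05, 4 by the methods' t-test at an unadjusted p of 0.01 or less, background 0.561%), and 1 higher and 1 lower gene in neocortex (background 9.28%). The median difference of the set in muscle was -0.21 under CR and -0.34 under resveratrol, beside 0.10 under CR and 0.07 under resveratrol over all genes tested. Under CR and resveratrol it was 0.18 and 0.16 in heart and 0.11 and 0.11 in neocortex, with medians over all genes between -0.03 and 0.01. Pdk3 did not pass the filter in muscle and was not tested there, and all other genes passed it in the 3 tissues.

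**Figure D1:**
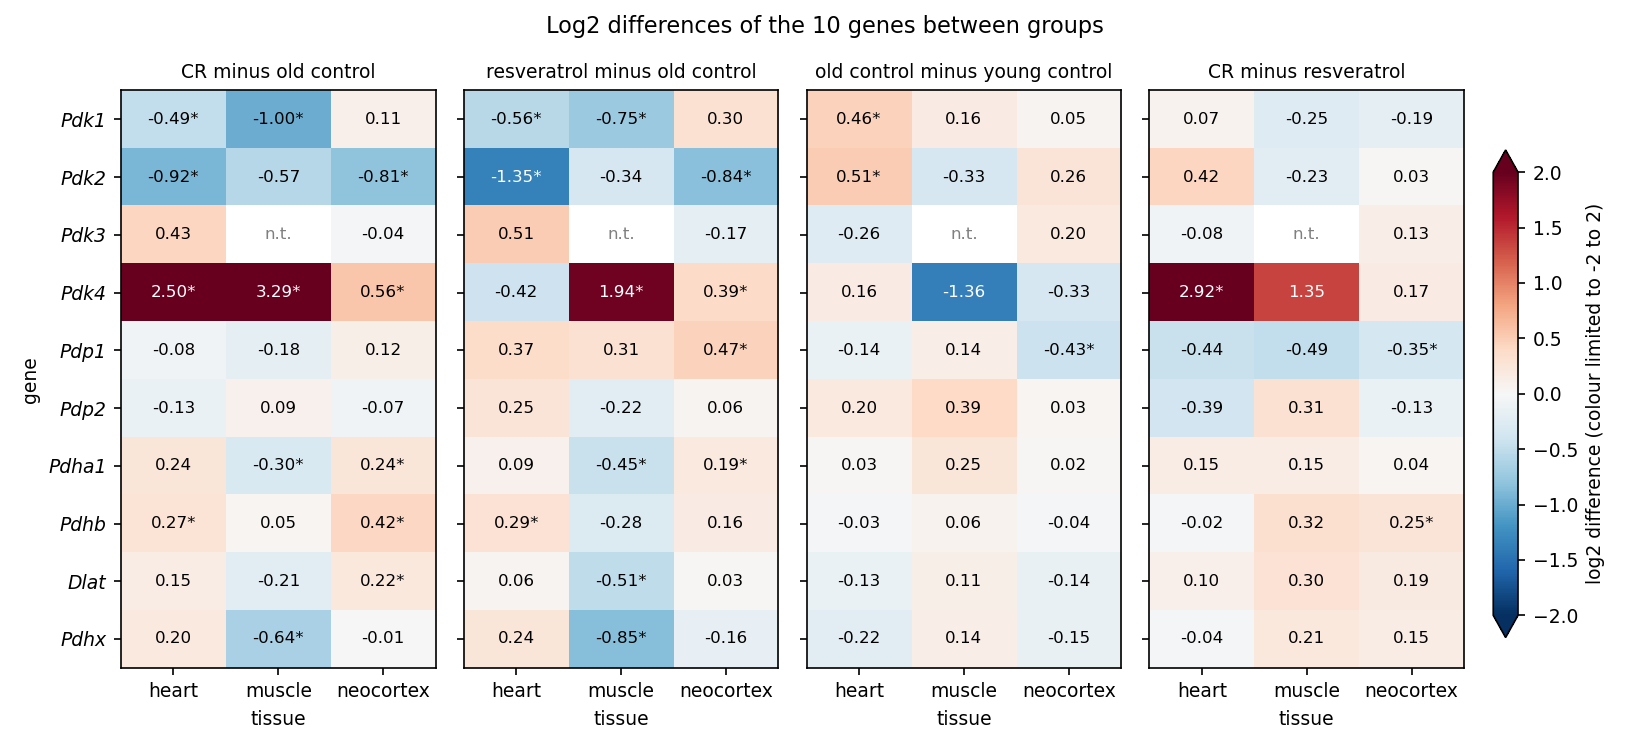
Log2 differences of the 10 genes (rows) in heart, muscle and neocortex (columns) for 4 comparisons, with an asterisk where the adjusted p was under 0.05 and n.t. where the gene was not tested. The deepest red cells are Pdk4, 3.29 in muscle and 2.50 in heart under CR, and 2.92 in heart for CR minus resveratrol. All of these lie beyond the end of the colour scale and share 1 colour. The darkest blue cells are Pdk4 in muscle with age (-1.36, not past the threshold) and Pdk2 in heart under resveratrol, at -1.35.

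Pdk4 had the largest rise of the set in heart and muscle under CR. Its signal was 35847, 48205, 38036, 48774 and 45128 in old CR hearts, against 5627, 6667, 8413, 6769 and 11562 in old control hearts. Young control hearts had 2766, 8818, 8431, 7161 and 9505. The lowest CR heart was thus above every control heart, and the rise was 2.50 (SE 0.33) on the log2 scale, 5.67-fold (adjusted p = 7.34e-06). Old resveratrol hearts spread widely, with 2729.8, 5139, 13282, 9299.6 and 3353, and overlapped the old controls. Their difference of -0.42 (SE 0.33) was not past the threshold (adjusted p = 0.442), and its 95% interval ran from -1.11 to 0.27. The direct difference of CR from resveratrol was 2.92 (SE 0.33, adjusted p = 7.33e-06). Its size uses no old control array, while its SE and p-value rest on the spread of all 4 groups.

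In muscle, Pdk4 was 42114, 47232, 50726, 53881 and 49173 in old CR mice and 19989.8, 13032, 20497, 28377 and 16427 in old resveratrol mice. Old control muscles had 1602, 2665, 4285, 11219 and 14362, and young control muscles 7805, 14154, 12976, 17581 and 13239. All CR muscles lay above all others, the resveratrol muscles overlapped both control groups, and the old controls were split, 3 at or under 4285 and 2 at 11219 and above. The rise was 3.29 (SE 0.41) under CR, 9.81-fold (adjusted p = 7.22e-06), and 1.94 (SE 0.41) under resveratrol, 3.85-fold (adjusted p = 0.00213). By the methods' t-test the resveratrol rise, past the threshold in limma, was not (adjusted p = 0.0622). CR muscles did not overlap resveratrol muscles, but the difference of 1.35 (SE 0.41) missed the threshold (adjusted p = 0.133), as did the lower level of old against young controls, -1.36 (SE 0.41, adjusted p = 0.139). Without the outlying old control replicate 1 and young control replicate 4 arrays the age difference was -0.84. The rise without them was 2.89 under CR and 1.54 under resveratrol, both still past the threshold.

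In neocortex, where the Pdk4 signal was low, old CR arrays had 345, 365, 375, 433 and 359.5 and old resveratrol arrays 375, 397, 293, 274 and 343. Old control arrays had 230.4, 242, 320.4, 268 and 223, and young control arrays 340.4, 397, 330.0, 298 and 252. CR arrays did not overlap old controls and resveratrol arrays did. Pdk4 rose by 0.56 (SE 0.13) under CR (adjusted p = 0.00256) and by 0.39 (SE 0.13) under resveratrol (adjusted p = 0.031), and the resveratrol call was lost when any of 6 single arrays was left out, with adjusted p up to 0.0904. The CR rise was larger in heart than in neocortex by 1.95 (adjusted p = 0.00509), and larger in muscle than in neocortex by 2.74 (adjusted p = 2.74e-05). The resveratrol difference was larger in muscle than in heart by 2.36 (adjusted p = 0.000229).

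**Figure D2:**
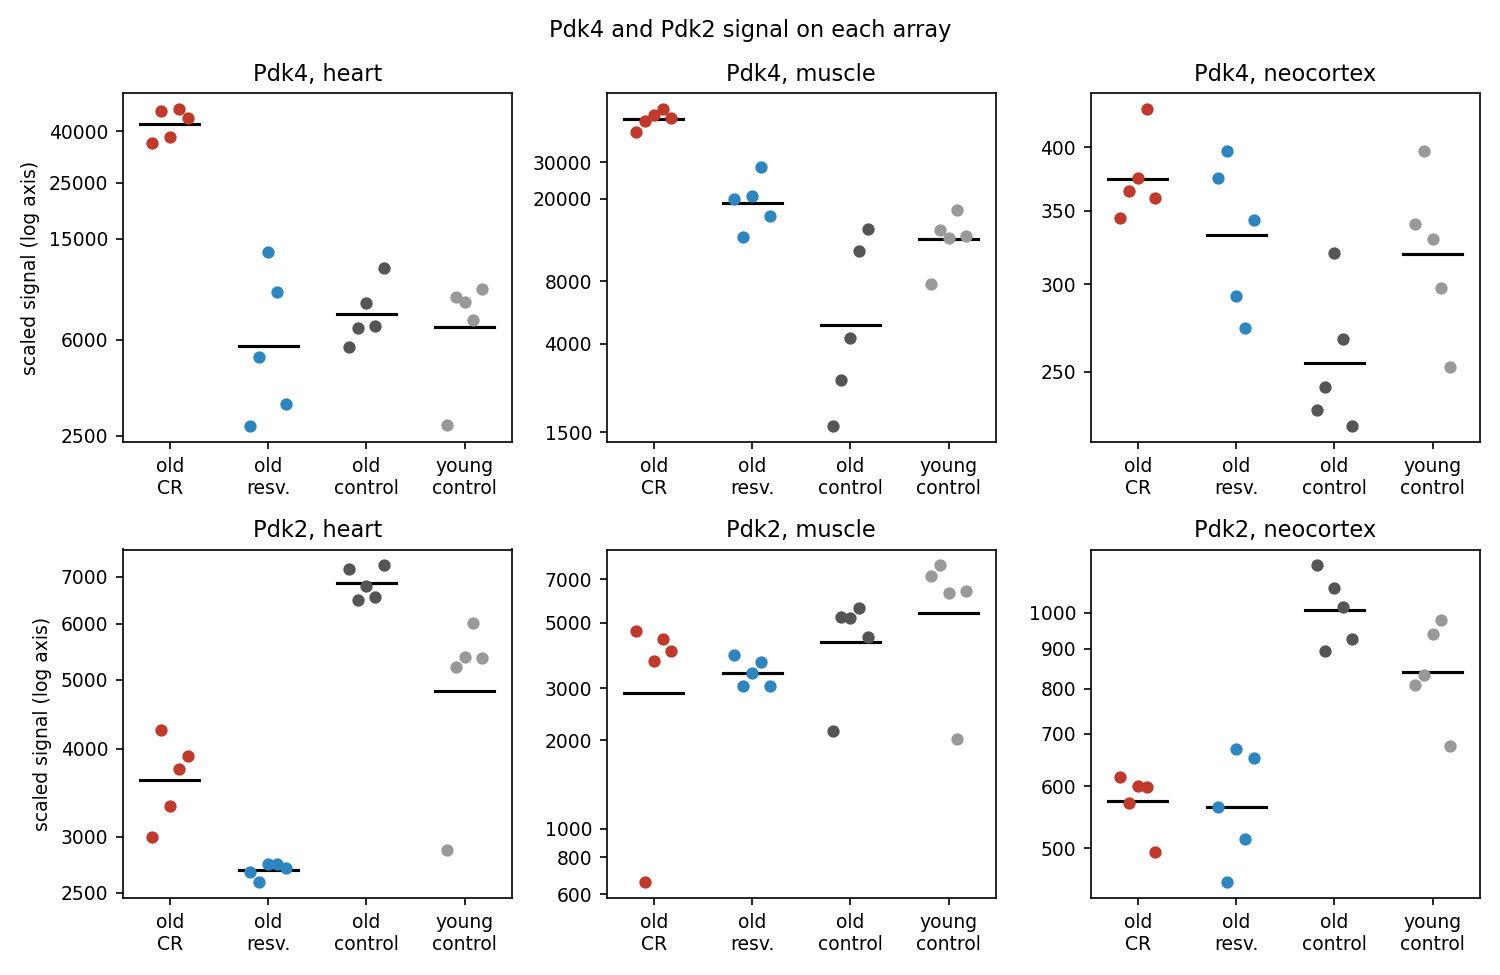
Scaled signal of Pdk4 (top) and Pdk2 (bottom) on every array of heart, muscle and neocortex, on log axes with a scale of its own for each panel, with old CR, old resveratrol, old control and young control from left to right and a bar at the mean of the log2 signals. Pdk4 on all 5 CR arrays of heart and muscle lies above every other array of the tissue, and Pdk2 on all diet arrays of heart and neocortex lies under the old controls.

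Signals of genes listed as markers of other cell types moved with the diets in heart. The listed genes were not checked to be confined to those cells, and a sum of unlogged signals follows its brightest genes. The summed signal of the adipocyte markers (6 of 8 listed genes measured) was 44739 to 65475 in old CR and 41908 to 59088 in old resveratrol hearts, against 26958 to 38763 in old control and 34332 to 68818 in young control hearts. Adipoq, Car3 and Fabp4 were past the threshold under CR among the 5 tested (background 22%), and Cidec and Retn were not (adjusted p = 0.144 and 0.369). The sum of the macrophage markers (5 of 5) was 13882 to 17712 under CR and 11911 to 17964 under resveratrol, against 8426 to 11496 in old controls. The red blood cell markers (3 of 5) summed to 5535 to 22607 in old CR and to 3369 to 7982 in old resveratrol hearts, against 1858 to 3153 in old control hearts. The liver markers (4 of 4) summed to 2807 to 4977 in old CR and 687 to 5651 in old resveratrol hearts, against 499 to 733 in old control hearts. Resveratrol hearts had adipocyte, macrophage and red blood cell sums above every old control heart, while their liver sums overlapped those of old controls. The part of these cells in the heart results was not tested. In muscle the adipocyte sums overlapped, at 87683 to 180904 under CR and 72296 to 96341 in old controls, while the macrophage sums were 5487 to 10300.3 under CR and 5764 to 12028 under resveratrol, against 4128 to 5721 in old control muscles, and the slow fibre markers (5 of 5) summed to 36387 to 62059.7 under CR and 30092 to 47174 under resveratrol, against 35078 to 108868 in old controls. Of the 6 adipocyte genes measured, only Retn was called in muscle under CR, and rose (1.65, adjusted p = 0.00679). Of the 5 slow fibre genes, only the myosin gene Myh7 was called there, and fell (-1.07, adjusted p = 0.0459), beside a background of 31.2% of all genes. Under resveratrol the slow fibre genes Myl3 (-1.45, adjusted p = 0.00946) and Tnnt1 (-0.69, adjusted p = 0.0217) fell in muscle (background 18.7%), and no adipocyte gene was called. In neocortex the neuronal sums overlapped, at 68186 to 78453 under CR and 66965 to 75674 under resveratrol, against 67255 to 78400.1 in old controls. The astrocyte sums (4 of 4) were 12156 to 16193 under CR and 12601 to 16860.4 under resveratrol, against 15607 to 19110 in old controls, and the macrophage sums 4716 to 5928 under CR and 5405 to 8151 under resveratrol, against 5039 to 5537 in old controls. The part of these cells in the muscle and neocortex results was not tested.

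The genes whose pattern lay nearest to Pdk4, by the root mean square distance of 12 tissue and group means centred on the old control mean of each tissue, among 15035 genes, were Fam107a (0.43 on the log2 scale), Ddit4 (0.49), Gria1 (0.50), Arrdc2 (0.50) and Cyp4x1 (0.58). On the log2 scale, Fam107a stood 2.70 above old controls in CR hearts and 3.38 above them in CR muscles. Ddit4, an inhibitor of mTOR signalling that stress and glucocorticoids induce, stood 1.11 above them in CR hearts and 3.34 in CR muscles. The distances describe the group means and are no test. A list of 15 genes known to share PPAR, FOXO or glucocorticoid control with Pdk4, of which 12 were measured, was read beside them. Under CR, 8 of 12 rose and none fell in heart, 6 rose and 1 fell in muscle, and 4 of 11 rose and none fell in neocortex, where 22%, 31.2% and 30.6% of all genes were called, with list medians of 0.92, 0.44 and 0.18. The members with the largest CR differences in heart were Angptl4, a lipase inhibitor of fasting (5.76), Ucp3, a mitochondrial carrier of muscle (3.40), Txnip, an inhibitor of glucose uptake (1.92), and Cpt1a, which admits fatty acids to mitochondria (1.35). Under resveratrol, 3 rose and 2 fell in heart (median 0.24), where the acyl-CoA thioesterase gene Acot1 fell (-2.46), 1 rose and 1 fell in muscle (median 0.06), and 2 rose in neocortex (median 0.13), beside 17.5%, 18.7% and 26.2% of all genes called. The direct comparison of the diets gave 6 of 12 higher under CR in heart (background 4%) and 5 of 11 in neocortex (background 9.28%), and none past the threshold in muscle, where 9 of 12 had an unadjusted p under 0.05 and the list median was 0.64. With age, 2 of 12 rose and 6 fell in heart (background 10.8%), among them Angptl4 (-3.41) and Acot1 (2.49). The list was drawn up with results of these data known.

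Pdk2 fell under both diets in heart and neocortex. In heart it was 3002, 4243, 3312, 3744 and 3905 in old CR mice and 2679.9, 2588, 2751, 2746 and 2714 in old resveratrol mice. Old control hearts had 7177, 6486, 6789.7, 6555 and 7261, and young control hearts 2871, 5212, 5381, 6016 and 5375. No diet array reached an old control array, and the 5 resveratrol values lay within 2588 to 2751. The difference was -0.92 (SE 0.14) under CR (adjusted p = 2.39e-05) and -1.35 (SE 0.14) under resveratrol (adjusted p = 5.6e-07), to 0.528 and 0.394 of the old control level. Resveratrol hearts were also under CR hearts without overlap, but the direct difference of 0.42 (SE 0.14) missed the threshold (adjusted p = 0.0818), and passed it without the outlying arrays of young control replicate 1 and old control replicate 4 (SE 0.08, adjusted p = 0.0026 over all probe sets). With age, Pdk2 rose in heart by 0.51 (SE 0.14, adjusted p = 0.0173), and by 0.33 without those 2 arrays, which were chosen after seeing the data. By the methods' t-test on log2 signal it was not past the threshold.

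In neocortex, Pdk2 was 616, 572, 600.2, 599 and 495 in old CR and 565, 452, 669.9, 514 and 651 in old resveratrol mice. Old controls had 1150.2, 893, 1076, 1016 and 927, and young controls 808, 832, 938, 979 and 675. Both diets lay wholly under the old controls, with differences of -0.81 (SE 0.11, adjusted p = 1.37e-05) under CR and -0.84 under resveratrol (SE 0.11, adjusted p = 1.33e-05), and the diets differed from each other by 0.03 (95% interval -0.21 to 0.26). In muscle, Pdk2 had 1 low array in 3 of the 4 groups. Old CR muscles had 4700.0, 659, 3716, 4384 and 4017, and old resveratrol muscles 3885, 3042, 3371, 3682 and 3039. Old control muscles had 2151, 5205, 5185, 5605 and 4471, and young control muscles 7181, 7816, 6297, 2015 and 6405. The groups overlapped and neither diet passed the threshold, with -0.57 (SE 0.43) under CR (adjusted p = 0.32) and -0.34 (SE 0.43) under resveratrol (adjusted p = 0.621). Leaving out CR replicate 2 brought the CR difference to -0.04, and leaving out old control replicate 1 and young control replicate 4, the low control arrays, brought it to -0.82 (SE 0.38, adjusted p = 0.0972) and the resveratrol difference to -0.59 (SE 0.38, adjusted p = 0.272), both p-values over all probe sets. These control arrays also had the highest 3′ to 5′ difference of beta-actin in muscle, 1.40 and 1.11, against 0.58 or less on the other muscle arrays, and its part in the Pdk2 values was not tested.

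Pdk1, a kinase gene known as a target of the hypoxia factor HIF-1, had 4 probe sets, which did not move together. The brightest on average over all arrays, which stands for the gene, was 3588, 3153, 3220.3, 3975 and 3829.6 in old CR and 2851, 3564, 3836, 3178 and 3473 in old resveratrol hearts. Old control hearts had 4455, 4604, 5579, 5383 and 4842, and young control hearts 2486, 3299.7, 3646, 4093 and 4969. On this probe set Pdk1 fell in heart, with differences of -0.49 (SE 0.13) under CR (adjusted p = 0.00917) and -0.56 (SE 0.13) under resveratrol (adjusted p = 0.00391), without overlap, and rose with age by 0.46 (SE 0.13, adjusted p = 0.0253), a call that 7 of 13 other ways of processing did not give. In muscle it was 1545, 949, 1268, 1200.2 and 1464 under CR and 1681, 1449, 1441, 1557 and 1426 under resveratrol, against 1856, 2808, 2760.4, 2613 and 2779 in old controls. No diet array reached an old control array, with differences of -1.0 (SE 0.19, adjusted p = 0.000457) under CR and -0.75 under resveratrol (SE 0.19, adjusted p = 0.00706). The second set, 1423747_a_at, was called under neither diet in heart or muscle. It gave 0.34 and 0.01 in muscle and 0.15 and 0.01 in heart under CR and resveratrol, and in neocortex it rose by 0.56 (SE 0.10) under CR (adjusted p = 0.000218) and by 0.49 (SE 0.10) under resveratrol (adjusted p = 0.000747), where the set that stands for the gene gave 0.11 under CR and 0.30 under resveratrol. The third set, 1423748_at, fell in muscle under resveratrol (-0.56) and rose in neocortex under CR (0.25). In heart, without the 2 outlying arrays, it gave 0.27 under CR and 0.05 under resveratrol, neither past the threshold (adjusted p = 0.0728 and 0.827 over all probe sets). Averaged over its probe sets, Pdk1 in heart turned to 0.13 under CR and 0.02 under resveratrol, and its muscle differences were no longer past the threshold. This mean includes the fourth set, 1434974_at, which did not pass the filter in heart. Its mean log2 ratio to the first set was -6.86 (SD 1.12) in old control hearts. The ratio was -5.82 (SD 1.38) in old CR and -5.76 (SD 0.64) in old resveratrol hearts. The part of this dim set in the turn was not tested. The direction of Pdk1 in heart thus depends on the probe set.

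Pdk3 had 1 probe set and was called in no comparison of diet or age in heart and neocortex, where it was tested. In heart it ran over 167 to 343 in old CR, 201 to 263 in old resveratrol, 132 to 212 in old control and 140.2 to 417 in young control mice, and the CR difference of 0.43 had a 95% interval of -0.16 to 1.03 and the resveratrol difference of 0.51 one of -0.08 to 1.10. In neocortex, where it was brightest, the CR difference was -0.04 (95% interval -0.26 to 0.18) and the resveratrol difference -0.17 (-0.39 to 0.05).

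Of the phosphatase genes, Pdp1 changed in neocortex on the probe set that stands for it, and Pdp2 was called in no comparison of diet or age. Pdp1 was 2471, 2920.2, 3153, 3234 and 3214 in old CR and 4051, 3207, 3459, 4053 and 4325 in old resveratrol neocortex. Old controls had 2950.2, 2654, 2673, 2901 and 2566, and young controls 3222, 4430.1, 3818, 3281 and 3869. All resveratrol and all young arrays lay above all old controls. Pdp1 rose under resveratrol by 0.47 (SE 0.10, adjusted p = 0.000799) and fell with age, with a difference of -0.43 (SE 0.10, adjusted p = 0.0224), the only gene of the set called with age in neocortex, and the call was lost when any of 6 single arrays was left out (adjusted p up to 0.0789). CR gave 0.12 (SE 0.10, adjusted p = 0.363) and differed from resveratrol by -0.35 (SE 0.10, adjusted p = 0.0245), a call lost in 4 of 12 other ways of processing and with any of 5 single arrays left out, and at -0.16 with the mean of both probe sets (adjusted p = 0.364). Its second probe set, 1434228_at, which was the brighter in heart and in control muscles, behaved otherwise. In neocortex its mean log2 ratio to the first set was -1.06 in old resveratrol, -0.69 in old CR and -0.76 in old control arrays. The second set thus rose less than the first under resveratrol there. In muscle it was 2659.7, 2594, 2322, 2406 and 2314 under CR and 2567, 3164, 2202, 3053 and 2697 under resveratrol, against 4583, 4340.4, 4511, 4753 and 3826 in old controls, and it fell, with differences of -0.84 (SE 0.14, adjusted p = 0.000126) under CR and -0.69 under resveratrol (SE 0.14, adjusted p = 0.00116), while the set that stands for the gene gave -0.18 under CR and 0.31 under resveratrol. In heart it rose under resveratrol, by 0.46 (SE 0.14, adjusted p = 0.0243). Without the 2 outlying heart arrays this difference was 0.37 (SE 0.13) and not past the threshold (adjusted p = 0.0615 over all probe sets). Pdp2 stayed between 38.7 and 278 on all 60 arrays, and its 95% intervals under CR ran from -0.87 to 0.60 in heart, -0.67 to 0.85 in muscle and -0.68 to 0.54 in neocortex.

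On the probe sets that stand for them, the subunit genes fell in muscle and rose in neocortex and heart where they were called. Pdhx showed the largest fall among these sets. In muscle it was 2134, 2549, 2385, 2034 and 2183 in old CR and 1861, 2072, 1753, 2051 and 2020.5 in old resveratrol mice. Old controls had 3293, 3949, 3343, 3722 and 3298, and young controls 2833, 3428, 3433, 3175 and 3126. No diet array reached a control array of either age, and the differences were -0.64 (SE 0.10, adjusted p = 8.35e-05) under CR and -0.85 under resveratrol (SE 0.10, adjusted p = 1.04e-05). Under CR and resveratrol, Pdhx gave 0.20 and 0.24 in heart and -0.01 and -0.16 in neocortex, none past the threshold. Dlat in muscle was 6331, 5719, 6085, 5929 and 6233 under CR and 5089, 5091, 4741, 5093 and 4676 under resveratrol, against 7165, 7380.1, 7189.7, 6510.2 and 6839 in old controls, and the differences were -0.21 (SE 0.09, adjusted p = 0.0718, not past the threshold) under CR and -0.51 under resveratrol (SE 0.09, adjusted p = 0.000477). Under resveratrol in muscle the other Dlat sets gave -0.37 (1426264_at, adjusted p = 0.0154) and -0.000681 (1452005_at, SE 0.15, adjusted p = 0.998), and the mean of the sets -0.29 (adjusted p = 0.0302). In neocortex Dlat rose under CR by 0.22 (SE 0.06, adjusted p = 0.0116). The probe set that stands for Dlat, 1426265_x_at, is of a class that may bind related transcripts, so its values are uncertain.

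Pdha1, the chain that the kinases phosphorylate, was 20091, 19689, 20075, 20750.4 and 19813 in old CR and 19041, 18679, 17012, 17670.1 and 18332 in old resveratrol muscles. Old control muscles had 24843, 25431, 24652, 22874 and 25862. Young control muscles had 21563, 22300.3, 21459, 21262 and 17855. The diet groups did not overlap the old controls, and Pdha1 fell, with differences of -0.30 (SE 0.08, adjusted p = 0.0105) under CR and -0.45 under resveratrol (SE 0.08, adjusted p = 0.000892). In neocortex Pdha1 was 7238, 7788, 7161, 7217 and 7066 under CR and 6894, 6619, 7358, 6750.5 and 7793 under resveratrol, against 6610.2, 6304, 6523, 5885 and 5690.3 in old controls. It rose by 0.24 (SE 0.06) under CR (adjusted p = 0.00499) and 0.19 (SE 0.06) under resveratrol (adjusted p = 0.0219). Quantile normalization brought the CR rise to 0.14 and left it not past the threshold (adjusted p = 0.0674), and the resveratrol call was lost in 5 of 12 other ways of processing, at 0.07 with the mean of both probe sets (adjusted p = 0.512), and when any of 3 single arrays was left out. In heart the CR difference of 0.24 (SE 0.09) missed the threshold without overlap of the groups (adjusted p = 0.058). Pdhb rose in neocortex under CR, where it was 10181, 10252, 9015, 8959 and 9238, against 6798, 6902, 7824, 6719 and 7428 in old controls, by 0.42 (SE 0.07, adjusted p = 6.28e-05), and it was above resveratrol by 0.25 (SE 0.07, adjusted p = 0.0218), a call lost in 4 of 12 other ways of processing and with any of 4 single arrays left out. In heart Pdhb was 41589.6, 40111, 43908, 37245 and 41193 in old CR and 40378, 38346, 41526, 43319.8 and 43932 in old resveratrol mice, against 34376, 36092, 31549, 33425 and 34088 in old controls. It rose by 0.27 (SE 0.09) under CR (adjusted p = 0.0296) and 0.29 (SE 0.09) under resveratrol (adjusted p = 0.0209). The CR call in heart was lost when any of 6 single arrays was left out (adjusted p up to 0.0766) and with no filter (adjusted p = 0.0628), and the resveratrol call when either of 2 was (adjusted p up to 0.0553). In muscle Pdhb was not called, at 0.05 (SE 0.12) under CR and -0.28 (SE 0.12) under resveratrol, and none of the 4 subunit genes was called with age on its brightest probe set in any tissue.

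**Figure D3:**
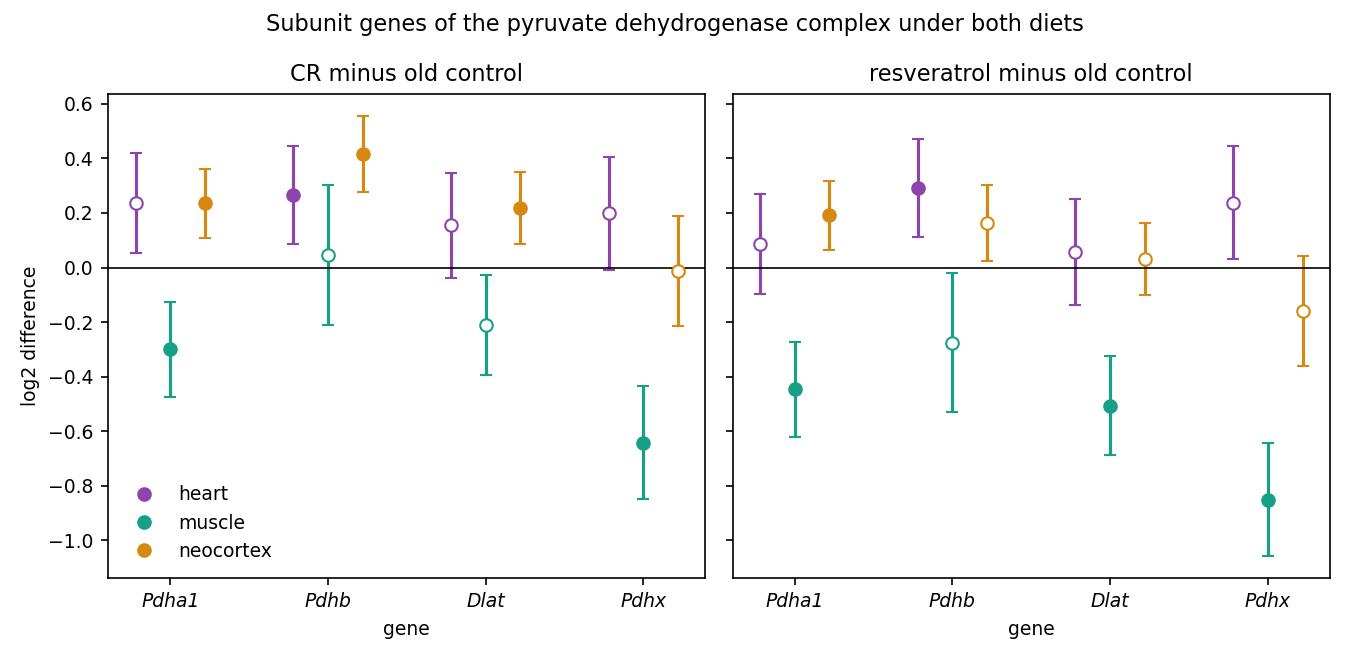
Log2 differences of Pdha1, Pdhb, Dlat and Pdhx under CR (left) and resveratrol (right), each against old controls, in heart, muscle and neocortex, with 95% intervals of the fit and filled points where the adjusted p was under 0.05. The filled muscle points lie at -0.30 and -0.64 under CR and from -0.45 to -0.85 under resveratrol, and the filled heart and neocortex points lie between 0.19 and 0.42.

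The second Pdha1 probe set, 1449137_at, moved further than the first. In heart it was 16096, 20984, 19497, 14691 and 16213 in old CR and 17976, 14195, 14583, 15695 and 12847 in old resveratrol mice. Old controls had 8426, 7907, 7551, 5705 and 9207, and young controls 12149.5, 18863, 18915, 17951 and 15235. All old control hearts lay under all other hearts. The differences were 1.18 (SE 0.13) under CR (adjusted p = 8.92e-07), 0.97 (SE 0.13) under resveratrol (adjusted p = 1.81e-05) and -1.10 (SE 0.13) with age (adjusted p = 5e-06), each adjusted over all probe sets, where the first set gave 0.24, 0.09 and 0.03. The same old control hearts had the high 3′ to 5′ differences of beta-actin and Gapdh given above, and their part in this pattern was not tested. In muscle, 1449137_at was 2599, 3282, 3552, 3215 and 3526 under CR and 2846, 3544, 2230.0, 2251 and 3175 under resveratrol. Old controls had 5112, 12693, 12913, 10609 and 12436, and young controls 10329, 10685, 11624, 3816 and 10538. No diet array reached a control array. The differences were -1.67 (SE 0.27, adjusted p = 0.000115) under CR and -1.89 under resveratrol (SE 0.27, adjusted p = 5.55e-05). The lowest control arrays, old control replicate 1 and young control replicate 4, were the ones with the highest beta-actin 3′ to 5′ difference, and the Gapdh difference was lower in every diet muscle than in every old control muscle, as given above. The part of these measures in this pattern was not tested. Without those 2 arrays the differences were -1.92 under CR and -2.13 under resveratrol, and with the mean of both probe sets Pdha1 in muscle gave -0.98 under CR and -1.17 under resveratrol. In neocortex this set rose under CR by 0.40 (SE 0.11, adjusted p = 0.00752).

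**Figure D4:**
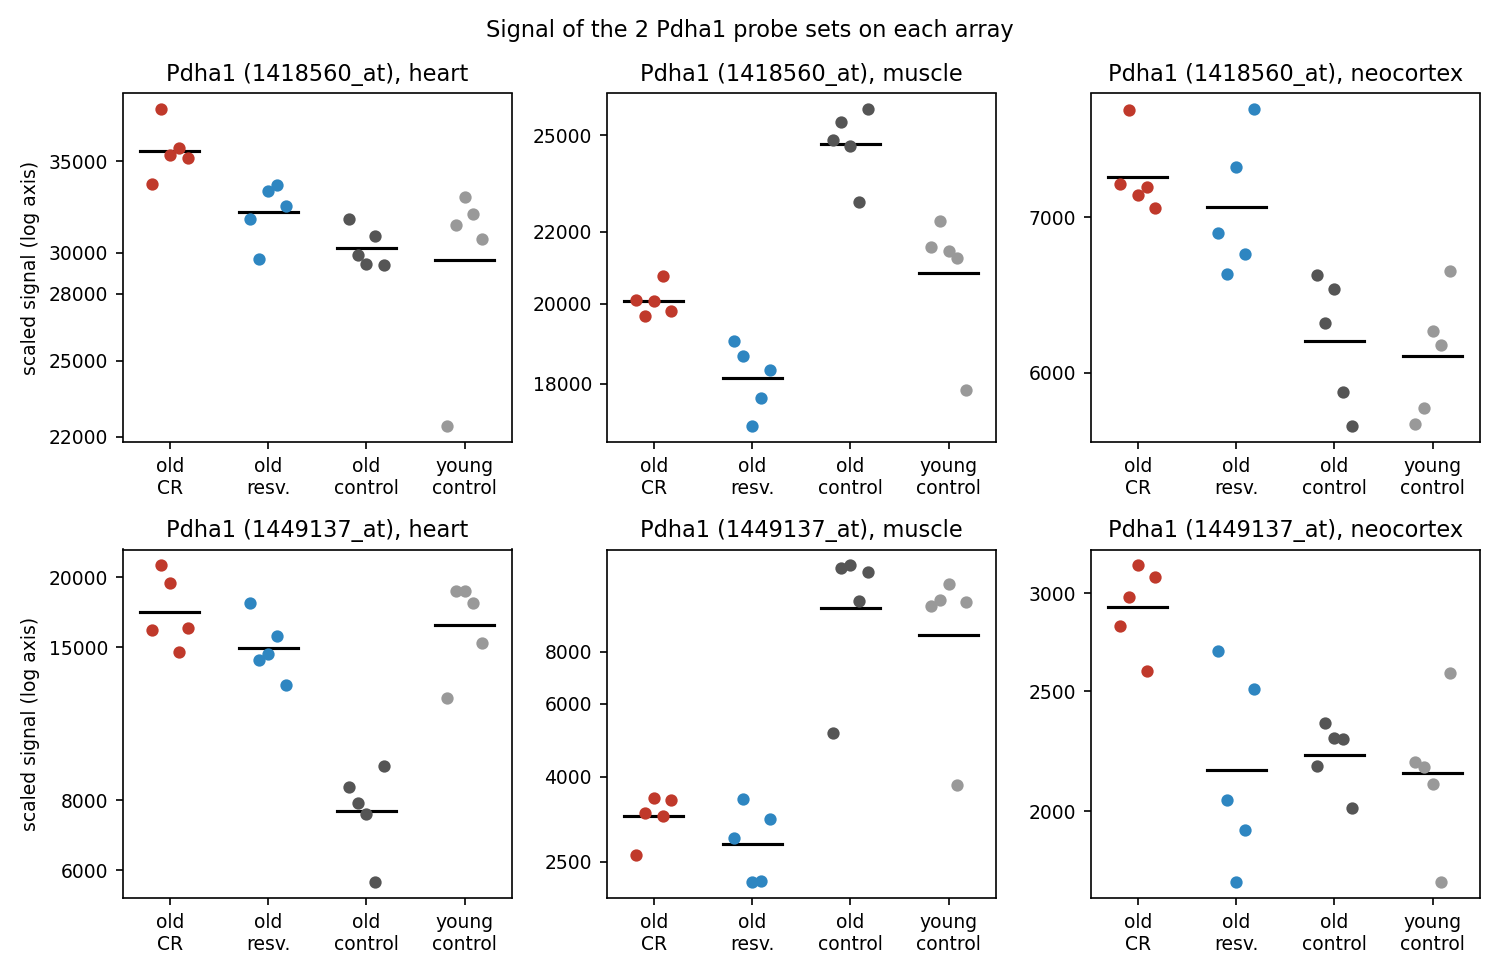
Scaled signal of the 2 Pdha1 probe sets, 1418560_at (top) and 1449137_at (bottom), on every array, on log axes with a scale of its own for each panel, with old CR, old resveratrol, old control and young control from left to right and a bar at the mean of the log2 signals. On 1449137_at the old control hearts lie at 5705 to 9207, under all other hearts, and the muscle arrays of both diets at 2230 to 3552, under all control muscles.

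Counted one by one, 3 of the 17 probe sets tested in heart rose and 2 fell under CR, with 20.4% of all probe sets called, 4 rose and 2 fell under resveratrol (background 15.2%), and 3 rose and 1 fell with age (background 12%). In muscle, 2 of 17 rose and 5 fell under CR (background 32.8%), and 1 rose and 8 fell under resveratrol (background 20.4%). In neocortex, 9 of 18 rose and 1 fell under CR (background 26.4%), and 6 rose and 1 fell under resveratrol (background 24.1%), Pdk2 being the one that fell in both. The third Dlat set, 1452005_at, was 1828, 1866, 1979, 1899.9 and 1852 under CR and 1765, 1956, 1933, 1898 and 1863 under resveratrol in neocortex, against 1488, 1485, 1357, 1460.2 and 1262 in old controls. It rose by 0.42 (SE 0.07, adjusted p = 0.000175) under CR and 0.42 (SE 0.07, adjusted p = 0.000202) under resveratrol, without overlap, and in heart by 0.35 (SE 0.09, adjusted p = 0.0111) under resveratrol. The dim Pdhb set, 1448214_at, rose in neocortex by 0.63 (SE 0.13) under CR and 0.44 (SE 0.13) under resveratrol, and in muscle by 0.61 (SE 0.17) under CR, where the bright set gave 0.05. Probe sets of 1 gene share its transcripts and are not replicates.

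The differences between tissues were tested in 1 fit of all 60 arrays, for the 9 genes that passed the filter in every tissue. Under CR, 3 of 9 were lower in muscle than in heart relative to old controls and none higher (background 27.5%), 5 were lower and 1 was higher in muscle than in neocortex (background 23%), and 1 was higher in heart than in neocortex (background 11.3%). Under resveratrol, 4 were lower and 1 was higher in muscle than in heart (background 23%), 5 lower and 1 higher in muscle than in neocortex (background 15%), and 1 lower in heart than in neocortex (background 7.41%). The gene higher in muscle was Pdk4 in each case, and those lower in muscle were subunit genes and, against neocortex, Pdk1. For Pdhx the effect in muscle minus that in heart was -0.84 (adjusted p = 3.26e-06) under CR and -1.09 (adjusted p = 1.87e-08) under resveratrol. For Pdha1 it was -0.53 under CR (adjusted p = 3.87e-05) and -0.53 under resveratrol (adjusted p = 5.02e-05), and for Dlat -0.37 under CR (adjusted p = 0.00729) and -0.56 under resveratrol (adjusted p = 6.84e-05). Pdhb differed between muscle and heart under resveratrol, by -0.57 (adjusted p = 0.000816), on its bright probe set. The dim Pdhb set did not share this difference. Without the 2 outlying arrays of each tissue it gave 0.49 in muscle and 0.20 in heart under resveratrol, where the bright set gave -0.25 and 0.29. Its CR rises in muscle and neocortex, given above, were also close. The tests between tissues used only the probe set that stands for each gene. For age, 1 of 9 differed between muscle and heart (background 7.69%), Pdk4, by -1.53 (adjusted p = 0.0415). The spike signals that set diet muscles apart from control muscles cannot be told apart from diet in these differences either. The labels do not link tissues to a mouse, and the fit takes all 60 arrays as separate mice.

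Neighbouring genes of pyruvate metabolism were read from a list of 12, of which 11 were measured. Under CR, 1 rose and 3 fell in heart, none rose and 3 fell in muscle, and 5 rose and 2 fell in neocortex (backgrounds 22%, 31.2% and 30.6%). Under resveratrol, 1 rose and 4 fell in heart, none rose and 4 fell in muscle, and 1 rose and 2 fell in neocortex (backgrounds 17.5%, 18.7% and 26.2%). Dld, the dehydrogenase of the complex, rose in heart under CR (0.29) and fell in muscle under resveratrol (-0.48). Pcx, which makes oxaloacetate from pyruvate, fell in heart under resveratrol (-0.85). Slc16a1, a carrier of lactate and pyruvate, fell in muscle (-1.25 under CR and -0.95 under resveratrol) and heart (-0.57 under CR and -0.43 under resveratrol) and rose in neocortex (0.43 under CR and 0.40 under resveratrol). Ldhb, a lactate dehydrogenase chain, fell in heart (-0.49 under CR and -0.53 under resveratrol) and muscle (-0.44 under CR and -0.79 under resveratrol). In neocortex Lias, which makes the lipoate that Dlat carries, and Mpc1, a chain of the mitochondrial pyruvate carrier, rose under CR (0.42 and 0.30). Of 8 genes of the sister 2-oxo acid dehydrogenase complexes, CR raised 1 and lowered 2 in heart, and lowered 2 each in muscle and neocortex, and resveratrol lowered 3 in heart, 2 in muscle and 3 in neocortex. Under CR, the 2 genes called in muscle and in neocortex are a smaller share of this list than the 31.2% and 30.6% called of all genes, and the backgrounds elsewhere were 22% in heart under CR and 17.5%, 18.7% and 26.2% under resveratrol. Ogdh, the decarboxylase of the citric acid cycle, fell in muscle (-1.21 under CR and -0.91 under resveratrol) and neocortex (-0.56 under CR and -0.36 under resveratrol), and Bckdk, the kinase of the branched-chain complex, fell in heart (-0.46 under CR and -0.68 under resveratrol).

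Of 12 transcription factors and coactivators known to act on Pdk genes, CR raised 2 and lowered 4 in heart (median -0.13), raised 4 and lowered 1 in muscle (median 0.32), and raised 3 and lowered 3 in neocortex (median -0.19), with backgrounds of 22%, 31.2% and 30.6%. Resveratrol lowered 4 in heart, raised 2 and lowered 1 in muscle, and raised 3 and lowered 1 in neocortex, with backgrounds of 17.5%, 18.7% and 26.2%. The fatty acid receptor genes Ppard and Ppara fell in heart under CR (-1.78 and -0.68) and under resveratrol (-1.63 and -0.64). Foxo1, a forkhead factor of fasting, rose in muscle under CR (1.54) and gave 0.62 there under resveratrol, not past the threshold. Esrra, a receptor that drives mitochondrial genes, and its coactivator gene Ppargc1a also rose in CR muscle (1.16 and 0.69), and the glucocorticoid receptor gene Nr3c1 fell there (-0.75). Foxo3 rose under CR in heart and neocortex (0.61 and 0.57). These are messenger RNA levels of the factors and were not tested against the Pdk genes.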

How the data were processed

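The deposited values are linear array intensity signals, which the authors computed with the Affymetrix GCOS 1.2 software and scaled on every array to a trimmed mean of 500. Of 45101 probe sets, 64 controls were left out, 34945 carried 1 gene symbol in the platform annotation, 932 several and 9160 none, and only those with 1 symbol were used. Signals under 1 were set to 1 and taken to log2. The brightest probe set on average stood for its gene. In each tissue, probe sets whose mean signal fell short of the 40th percentile were dropped, and 13285 genes were tested in heart, 12831 in muscle and 13057 in neocortex. All 4 groups entered 1 fit per tissue with limma 3.58.1 in R 4.3.3 (eBayes with trend) and called at an adjusted p under 0.05, and differences between tissues came from 1 fit of all 60 arrays. The study's methods name a t-test on 2 groups at a p of 0.01 or less, which was run as an alternative. The fits were tested on simulated data. Sums, figures and exact permutation tests, 36 in 1 family, used Python 3.11.15 with scipy 1.17.1.

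Alternatives were quantile normalization, an offset of 16, no filter or one at the 60th percentile, the methods' t-test on log2 or unlogged signal, no trend, only the 2 groups compared, the mean of all probe sets, all probe sets on their own, a replicate block, each array left out, and, added after seeing the data, 2 outlying arrays left out in heart and in muscle. The members and lists were chosen with earlier results of these data known. All 10 genes are named, with up to 4 called genes of each list by size of difference and the 5 genes nearest to Pdk4. The labels call the 5 arrays of a group biological replicates, and p-values measure the spread between these samples.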

Additional observations from a re-analysis of the deposited data

Results flagged for a closer look

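Of 120 gene, tissue and group combinations tested with Dixon's criterion, 11 held 1 array far from the other 4, where chance gives about 1 in 20. On the young control heart array of replicate 1, the one that correlated least with its group, Pdk2 was 2871, Pdk4 2766, Pdha1 22384 and Pdk3 417. On the muscle arrays of old control replicate 1 and young control replicate 4, Pdk2 was 2151 and 2015, and on that of old control replicate 1 Pdk1 was 1856. Pdk2 was 659 on the muscle array of old CR replicate 2. Single values also stood apart for Pdk3 in muscle of old resveratrol replicate 5 (135), Pdha1 in muscle of young control replicate 5 (17855) and Pdha1 in neocortex of old CR replicate 2 (7788).

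The effect of a diet or of age differed between tissues in 23 tests of the difference itself, each past the threshold in the fit of all arrays. Each test used the probe set that stands for the gene, and the dim Pdhb set did not share the Pdhb difference between muscle and heart. Under CR, the effect in muscle minus that in heart was -0.53 for Pdha1, -0.37 for Dlat and -0.84 for Pdhx. The CR effect in heart minus that in neocortex was 1.95 for Pdk4. In muscle minus neocortex it was 2.74 for Pdk4, -1.11 for Pdk1, -0.53 for Pdha1, -0.37 for Pdhb, -0.43 for Dlat and -0.63 for Pdhx. Under resveratrol, muscle minus heart gave 2.36 for Pdk4, -0.53 for Pdha1, -0.57 for Pdhb, -0.56 for Dlat and -1.09 for Pdhx, and heart minus neocortex gave -0.86 for Pdk1. In muscle minus neocortex the resveratrol differences were 1.56 for Pdk4, -1.05 for Pdk1, -0.64 for Pdha1, -0.44 for Pdhb, -0.54 for Dlat and -0.69 for Pdhx. With age, muscle minus heart gave -1.53 for Pdk4.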

How the results depend on the processing

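The counts of genes called under CR against old controls, and under resveratrol in heart and muscle, stayed within 1.5 times under each alternative run. Elsewhere counts moved. With age in heart, 2 genes became 0 under the methods' t-test on log2 signal, at its unadjusted threshold, on unlogged signal and with only the 2 groups compared, and 1 without the trend or without the 2 outlying arrays. CR against resveratrol in heart, 1 gene, gave 3 at the methods' unadjusted threshold, 2 with only the 2 groups and 2 without the outlying arrays. In muscle, the methods' unadjusted threshold gave 1 gene with age and 4 for CR against resveratrol, where the t-test on unlogged signal gave 2 and only the 2 groups gave 1. Resveratrol in neocortex, 4 genes, gave 2 under all 3 forms of the methods' t-test. Age in neocortex, 1 gene, gave 0 on log2 signal, 2 at the unadjusted threshold, and 0 on unlogged signal and with the mean of probe sets. CR against resveratrol in neocortex, 2 genes, gave 1 after quantile normalization and at the unadjusted threshold, and 0 in the t-tests on log2 and unlogged signal and with the mean of probe sets. With 1 array left out at a time, counts ran from 3 to 4, 4 to 4 and 5 to 5 under CR in heart, muscle and neocortex, from 2 to 3, 5 to 6 and 2 to 5 under resveratrol, from 1 to 2, 0 to 1 and 0 to 1 with age, and from 1 to 1, 0 to 0 and 0 to 2 for CR against resveratrol. The direction turned for Pdk1 in heart with the mean of all probe sets (0.13 under CR and 0.020 under resveratrol), for Pdk4 with age in heart, which was not called, without young control replicate 1 (-0.16, with the other arrays left out up to 0.29) and without the 2 outlying arrays (-0.12), and for Pdk2 in muscle between the diets, not called either, on unlogged signal (0.038) and without CR replicate 2 (0.31, the others down to -0.40). The causes were not tested. The Pdk1 mean includes the set 1434974_at, which did not pass the filter in heart. The labels do not say that replicate numbers pair the samples. Of 30 same-numbered pairs in each tissue, 0, 2 and 3 in heart, muscle and neocortex correlated above 0.1. Their median r was 0.007, 0.013 and 0.030, against -0.003, 7.4e-05 and -0.012 for other pairs. Such small values cannot exclude a pairing. With the replicate block the counts were 4, 4 and 5 under CR, 3, 5 and 4 under resveratrol, 2, 0 and 1 with age and 1, 0 and 2 between the diets, the same as without it. The depth of an array is its signal over background, and the number of arrays, 5 a group, limits the precision. Pdk3 in muscle and Pdp2 lay near the filter.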
